A study of Arabidopsis thaliana with 4 samples.

Results

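The response to salt of seedlings of Arabidopsis thaliana carrying ABR17 was described from 2 of the 4 miRNA arrays of the series, the one of transgenic seedlings on medium with 100 mM NaCl (ABR17_salt) and the one of transgenic seedlings on medium with 0 mM NaCl (ABR17_control). Both were chosen by their labels, and each carries the same set of Arabidopsis miRNA probes, 2556 spots with 12 repeat spots a probe, all of which are accounted for here. ABR17 is a gene of garden pea, responsive to abscisic acid, whose product belongs to the pathogenesis-related PR10 proteins. Seedlings of both groups carried the cDNA of this gene and grew on Murashige and Skoog medium, which the labels put at 2 weeks while the growth text also gives 7 days. The labels name neither the promoter that drives the transgene nor how many lines were used. The other pair of arrays holds wild type seedlings on the same media. It enters the normalisation and is otherwise used only for comparison. The design text speaks of 3 biological replicates, but each group has 1 array, and the labels do not say whether its RNA was pooled. No test between the groups was therefore made, and sizes are set against the spread of the repeat spots and against the blank spots. The probes are all for small RNAs, so the seedling label and the transgene were not checked against mRNA markers.

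Plant miRNAs are short RNAs that guide ARGONAUTE proteins to messenger RNAs with nearly complementary sites, most often cutting them. Many of the conserved families act on transcription factors that set the timing and shape of growth, while others act on enzymes and transporters of copper, sulfate or phosphate. Salt in the medium slows growth and brings osmotic and ionic stress, and abscisic acid is a main hormone of that response, which is the setting in which the series asks what miRNAs do in ABR17 plants.

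The sequences that carry the results are printed 5′ to 3′ as the deposited array files give the target of each probe, with bases 2 to 8, the seed, in capitals. The first set holds the 4 miRNAs with the highest differences between salt and control together with miR319a, whose target differs from that of miR319c by a single base.
miR824: uAGACCAUuugugagaaggga
miR173: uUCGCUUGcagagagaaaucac
miR5021: uGAGAAGAagaagaagaaaa
miR319c: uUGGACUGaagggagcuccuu
miR319a: uUGGACUGaagggagcucccu
The next set holds the miRNAs that were lower with salt, beside relatives of the same family.
miR398b: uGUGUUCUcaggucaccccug
miR398a: uGUGUUCUcaggucaccccuu
miR167a: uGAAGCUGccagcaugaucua
miR167d: uGAAGCUGccagcaugaucugg
miR167c: uAAGCUGCcagcaugaucuug
miR164a: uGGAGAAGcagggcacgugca
miR164c: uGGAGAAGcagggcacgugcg
miR171b: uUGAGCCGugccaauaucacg
miR171a: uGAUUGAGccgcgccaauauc
The last set holds the brightest miRNAs that were detected with salt only, and miR157d, which is a single base away from miR156h and was detected on both arrays.
miR395a: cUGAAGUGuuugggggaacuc
miR395b: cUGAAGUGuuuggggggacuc
miR156h: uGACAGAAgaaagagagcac
miR157d: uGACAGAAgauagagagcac
miR158a: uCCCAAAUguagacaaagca
Counted from 1 at the 5′ end of the first-named member, the substitution is C20U between miR319a and miR319c, U21G between miR398a and miR398b, A21G between miR164a and miR164c, A21G between miR167a and miR167d, A17G between miR395a and miR395b, and U11A between miR157d and miR156h. Relative to miR171a, miR171b starts 3 bases further in, and within the 18 bases that align they differ by C12U. Relative to miR167a, miR167c starts 1 base further in and differs by G2U and A21U. The members of every pair but these last 2 share their seed, and how far relatives bind each other's probes was not measured here.

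Detection of an miRNA required 50% or more of its 12 spots to exceed the mean of the array's 1120 blank spots by 3 of their SD. Blank spots read 111 ± 13.2 (SD) on ABR17_control and 86.5 ± 3.92 on ABR17_salt in units of Cy3 intensity, so a probe needed 39.7 units above the blank mean without salt and only 11.8 with salt. On ABR17_control 30 miRNAs were detected and on ABR17_salt 59, and every one of the 30 was among the 59. Detection on both arrays thus covered 14.1% of the probes (30 miRNAs), detection with salt only 13.6% (29 miRNAs), and 154 miRNAs were detected on neither. The arrays also differed outside the miRNAs: 5S rRNA probes averaged 36776 on ABR17_control and 46638 on ABR17_salt, and above the blanks the 11 calibration probes of the 3P kind had a median ratio of salt to control of 1.22. The same ratio had a median of 1.02 over the 30 miRNAs, with 16 above 1 and 14 below. Levels were quantile normalised over the miRNAs of the 4 arrays and are therefore relative to the other miRNAs and rest in part on the wild type arrays. With the ABR17 arrays normalised alone, miR5021 differed by 1.03 and was called higher beside miR824. Normalised levels and differences are on a log2 scale with an offset of 50 units, which draws differences of dim miRNAs towards 0. The SE beside a difference comes from the 12 repeat spots of each array, so it reflects printing and scanning and says nothing of how seedlings vary. Whether spots of the arrays overlap was judged on their normalised values.

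**Figure D1:**
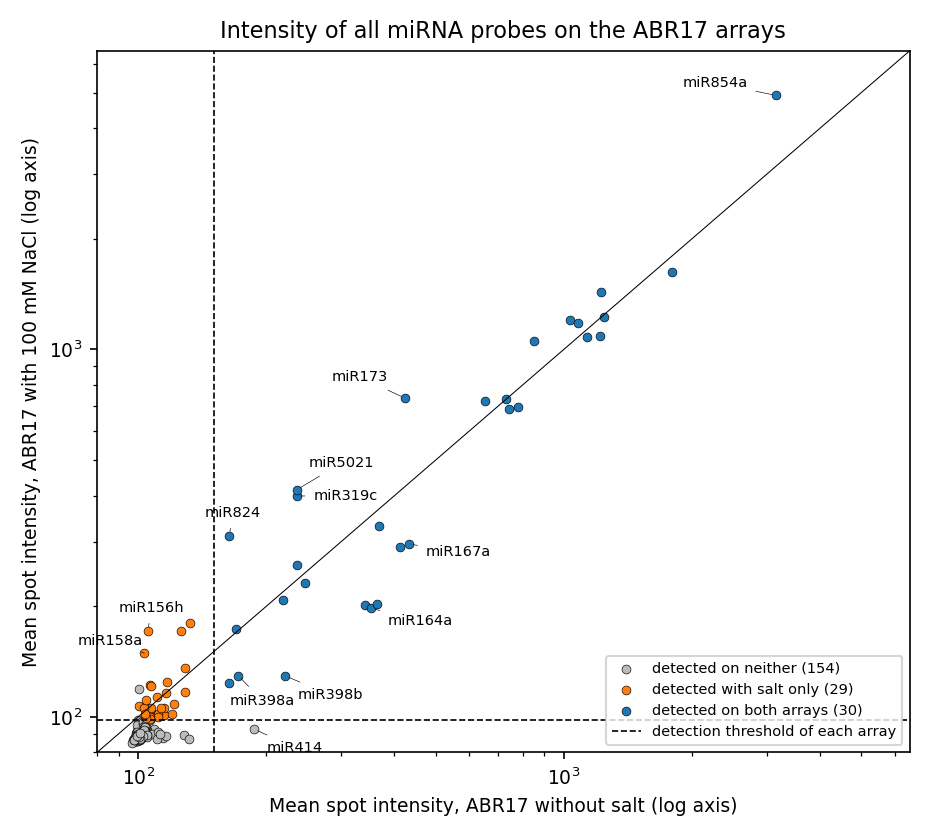
Mean intensity of each miRNA probe over its 12 spots on the array without salt (x) and with 100 mM NaCl (y), both on log axes, with the line of equality and the detection threshold of each array dashed. The 30 miRNAs detected on both arrays mostly lie near the line, with miR824, miR5021 and miR319c above it and miR164a, miR167a and miR398b below it, whereas the 29 detected with salt only sit left of the threshold of 151 on the array without salt.

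Among the 30 miRNAs detected on both arrays the difference between salt and control was small for most, with a few named exceptions in each direction. Its size was under 0.25 for 17 of them and under 0.5 for 20, with a median of 0.00 and SEs of 0.04 to 0.14 (median 0.06). Positive differences numbered 11, negative ones 14, and 5 miRNAs had the same rank on both arrays and so a difference of exactly 0, which is a tie of rank and not a measured equality. An miRNA was called where it was detected on at least 1 array, the difference was 2-fold or more and the repeat spots did not overlap. By this rule 1 of 59 miRNAs was called higher with salt (1.69%), miR824, and none lower (0.00%). The largest sizes outside the rule were those of miR398b at -0.90 and miR173 at 0.83. Repeat spots that did not overlap, whatever the size, were found for 3 of 30 miRNAs higher with salt (10.0%) and for 5 of 30 lower with salt (16.7%). In bulk seedlings, a difference in the number of cells that hold an miRNA and a difference in its level per cell cannot be told apart.

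**Figure D2:**
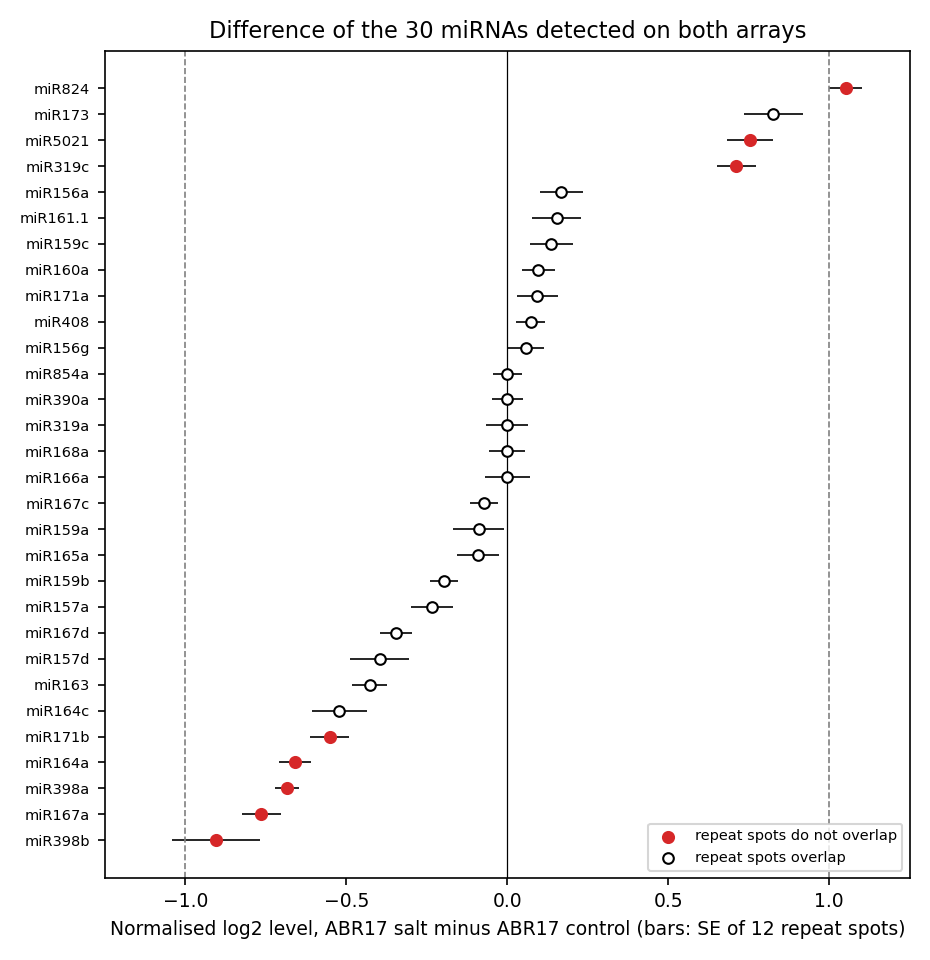
Normalised log2 level on ABR17_salt minus ABR17_control for the 30 miRNAs detected on both arrays, with bars of 1 SE from 12 repeat spots and dashed lines at the 2-fold size. Filled points mark the 8 miRNAs whose repeat spots do not overlap, from miR824 at 1.05 to miR398b at -0.90.

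miR824, which guides cutting of the MADS-box transcript AGAMOUS-LIKE16 and so takes part in stomatal development, had the largest difference of the 30 miRNAs. Its spots read 144 at the lowest, 166.1 at the median and 183 at the highest without salt, against 287, 308 and 367 with salt. All 12 spots with salt were brighter than any spot without, and the mean above the blanks went from 52.6 to 225 units. The ratio of these means, 4.27, was near the highest of a 3P calibration probe, 4.22. The median ratio of the 3P probes was 1.22, while another calibration probe, PUC2PM-20B, under the threshold without salt, had 102. Above the mean of the 3M calibration probes miR824 went from 63.4 to 221 units. The normalised level was 7.37 without salt and 8.42 with salt, a difference of 1.05 ± 0.05 (SE, 12 spots), or 2.07-fold. Taken over each of 4 blocks of rows on the arrays, the difference lay between 0.90 and 1.28. The authors' processed intensities were 87.8 and 239, a log2 ratio of 1.45. RefSeq (TAIR10.1) lists the locus of this name as AT4G24415.

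miR173, miR5021 and miR319c followed, each with a difference between 0.71 and 0.83. miR173, of 22 bases, cuts the non-coding TAS1 and TAS2 transcripts and thereby starts trans-acting siRNAs from them. Its spots read 365, 427 and 473 (lowest, median and highest) without salt and 433, 747 and 872 with salt. A single dim spot with salt made the ranges overlap, although the spot with salt was the brighter one at 12 of 12 positions, and the difference was 0.83 ± 0.09. Its size varied over the array, at 0.49 ± 0.16 on the upper rows alone and 0.90 ± 0.10 on the lower rows alone.

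miR5021 (AT2G08235) is a late-named miRNA of Arabidopsis. Its spots read 208, 232 and 267 without salt and 342, 412 and 530 with salt, with no overlap. The difference was 0.75 ± 0.07 and varied little over the array, from 0.71 to 0.79 between row blocks. The wild type arrays showed the opposite sign for this miRNA, -1.24 ± 0.07 for salt minus control, a contrast that could not be tested with 1 array a group. Blank spots of the wild type arrays read 231 without salt and 84.8 with salt, so these 2 arrays were unlike in background.

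miR319c (AT2G40805) belongs to the family that limits TCP transcription factors during leaf growth. Spots read 184, 238 and 270 without salt and 342, 392 and 465 with salt, again without overlap, and the difference was 0.71 ± 0.06. Its relative miR319a, a C20U change away, was dim on both arrays, with spots of 135, 172.4 and 189 without salt and 153, 174 and 195 with salt. Those ranges overlapped almost wholly, and the rank of miR319a was the same on both arrays. Above the blanks its mean was 58.8 units without salt and 87.3 with salt, since the blank mean taken off was the lower one on ABR17_salt.

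**Figure D3:**
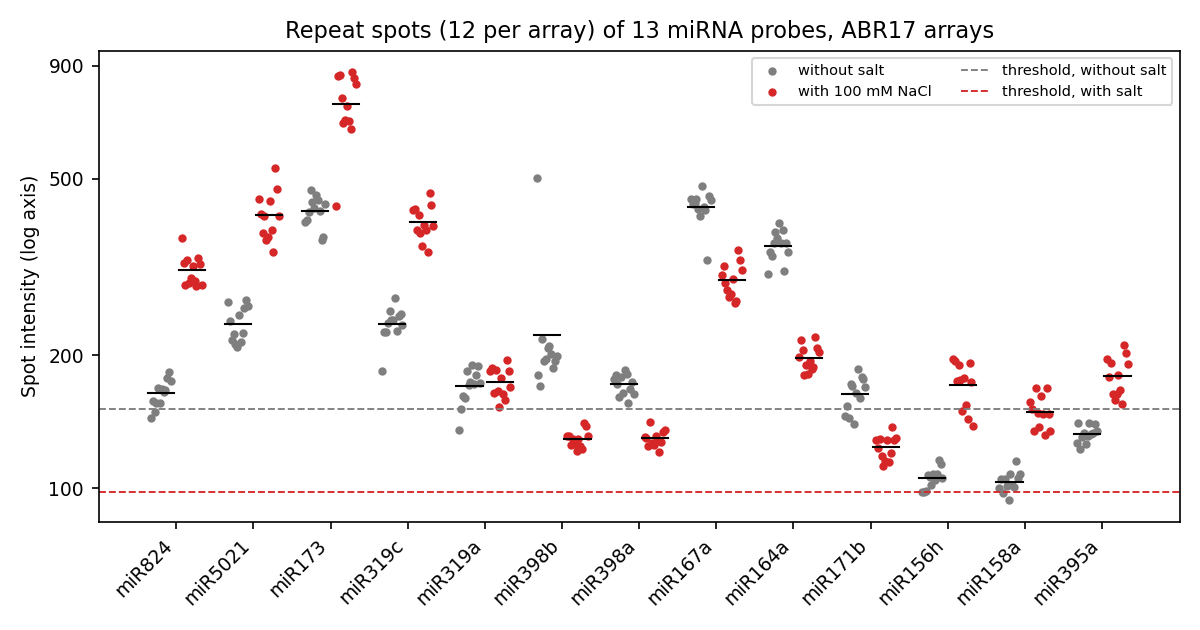
Intensity of each of the 12 repeat spots (log axis) for 13 miRNAs on ABR17_control (grey) and ABR17_salt (red), with the mean as a bar and the detection threshold of each array dashed. miR824, miR5021 and miR319c lie higher with salt and miR398a, miR398b, miR164a and miR171b lower with no shared intensities, while miR167a and miR319a overlap. The grey spots of miR156h, miR158a and miR395a lie under the threshold of the array without salt.

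The copper miRNAs split. miR398a and miR398b, which act on transcripts of the copper/zinc superoxide dismutases CSD1 and CSD2, were lower with salt, whereas miR408, which acts on plantacyanin and laccase transcripts, had a difference near 0. For miR398b (AT5G14545) spots read 170, 197 and 503 without salt and 121, 129 and 141 with salt. The ranges did not overlap, and the difference was -0.90 ± 0.14, the widest SE of the 30 miRNAs. Part of it rests on 1 spot of 503 without salt, where the next highest read 217, and leaving that spot out takes the mean without salt from 222 to 196. miR398a (AT2G03445) had no such spot. It read 155.8, 172.995 and 185 without salt and 121, 129 and 141 with salt, and its difference was -0.68 ± 0.04 with 0 of 12 positions brighter with salt. miR408 read 203, 239 and 275 without salt and 234, 258 and 275 with salt, a difference of 0.07 ± 0.04. Its mean above the blanks with salt was 1.38 of that without. Over the alternative ways of processing the difference of miR408 ranged from -0.24 to 0.41 and turned sign under 2. Of the 6 copper probes 3 were detected on both arrays and 3 on neither, and the median difference of the detected members was -0.68 against 0.00 for the 30 miRNAs.

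miR167a (AT3G22886), which acts on the auxin response factors ARF6 and ARF8, was also lower with salt. Spots read 328, 440 and 483 without salt and 262, 294 and 345 with salt. The raw ranges overlap through 1 dim spot without salt, the normalised ones did not, and the difference was -0.76 ± 0.06. The other members differed less, miR167d at -0.35 ± 0.05 with overlapping spots and miR167c at -0.07 ± 0.04. miR160a, which acts on another group of auxin response factors, stood at 0.10 ± 0.05, and miR390a, which sets off siRNAs against a further group of them, kept its rank. Spots of miR390a read 330.1, 368 and 398.2 without salt and 293, 331 and 371 with salt.

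The 2 members of the miR164 family detected here, which restrict NAC transcription factors of the CUP-SHAPED COTYLEDON group at organ boundaries, were both lower with salt. miR164a (AT2G47585) read 304, 358 and 397.5 without salt against 180.4, 196 and 219.9 with salt, and the difference was -0.66 ± 0.05 with no overlap. miR164c read 242, 385 and 411 without salt against 182, 203 and 226 with salt, a difference of -0.52 ± 0.08. The raw ranges were apart, but after normalisation 1 position of 12 was the brighter one with salt and the ranges overlapped. In the authors' processed intensities miR164a went from 320.5 to 124, a log2 ratio of -1.37. The leaf polarity miRNAs miR165a and miR166a, which act on class III HD-ZIP transcripts and stand with miR164 in the list of organ boundary and leaf polarity, had differences of -0.09 ± 0.07 and 0.00.

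miR171b and miR163 complete the lower side. miR171b, one of the miRNAs that act on GRAS transcription factors of the HAIRY MERISTEM group, read 139.7, 166.4 and 186 without salt and 112, 126 and 137 with salt. No spots overlapped, and the difference was -0.55 ± 0.06. miR171a, shifted by 3 bases and detected on both arrays, stood at 0.09 ± 0.06. miR163, a 24-base miRNA of Arabidopsis and its close relatives that acts on methyltransferase transcripts, read 277, 353 and 381 without salt and 186, 200.4 and 220.1 with salt. Its mean above the blanks with salt was 0.50 of that without. On the rank-based log2 scale with its offset the difference was -0.43 ± 0.05. The raw ranges were apart, but the normalised ones overlapped. Over the alternatives the difference of miR163 ranged from -1.26 to -0.37.

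Most of the bright conserved miRNAs had small differences. The SPL-targeting miR156a and miR156g, which delay the change from juvenile to adult leaves, had differences of 0.17 ± 0.07 and 0.06 ± 0.06. Their relatives miR157a and miR157d stood at -0.23 ± 0.06 and -0.40 ± 0.09. The MYB-targeting miRNAs miR159a, miR159b and miR159c gave -0.09 ± 0.08, -0.20 ± 0.04 and 0.14 ± 0.07, all with overlapping spots. miR161.1, which acts on transcripts of pentatricopeptide repeat proteins, stood at 0.15 ± 0.08, and miR168a, which acts on AGO1, kept its rank. miR854a was the brightest miRNA on both arrays, with spots from 2746 to 3465 around a median of 3148 without salt and from 4292 to 5694 around 4885 with salt. Its raw spots did not overlap between the arrays, but as the top rank of each it takes the same normalised level by construction, and without normalisation it differed by 0.65.

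The families were also grouped into lists by their known targets. Over all 30 miRNAs detected on both arrays, spots were apart for 3 higher (10.0%) and 5 lower (16.7%), against which the counts of the lists are to be read. Of 50 probes of conserved families 24 were detected on both arrays, with a median difference of -0.08, 1 member higher and 5 lower without overlap of spots. The other 163 probes gave 6 miRNAs detected on both arrays with a median of 0.45, 2 of them higher and none lower without overlap, miR824 and miR5021. Among 28 probes of families named in earlier Arabidopsis work on salt, 14 were detected on both arrays with a median of -0.04, 1 higher and 2 lower without overlap, near those shares. The auxin list had a median of -0.07 over 5 members, the phase change list -0.09 over 4, the organ boundary and leaf polarity list -0.31 over 4, the MYB and TCP list 0.00 over 5, the tasiRNA and PPR list 0.15 over 3, and the GRAS list -0.23 over 2. The median over the 30 miRNAs detected on both arrays was 0.00. These medians moved with the scaling, as that of all miRNAs did. With calibration probe scaling the tasiRNA and PPR list stood at -0.24, the MYB and TCP list at -0.30 and the organ boundary and leaf polarity list at -0.99, where all miRNAs had -0.50. Without normalisation the phase change list turned to 0.03, and the salt list also turned sign in 2 of the settings. The list of other families went down to 0.14 with the 3M threshold. That threshold leaves the levels as they are and changes which miRNAs count as detected on both arrays, 36 rather than 30. Of the silencing machinery list only miR168a was detected on both arrays.

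Detection with salt and not without concerned 29 miRNAs, most of which lay between the heights that the arrays demanded. Of the 29, 5 stood further above the blanks with salt than the 39.7 units needed without salt, namely miR395a, miR156h, miR395b, miR158a and miR834. The other 24 reached 11.9 to 37.6 units with salt, under the height required without salt. On ABR17_control 16 of the 29 had a mean below that of the blank spots, and the median probe not detected there read 101 against a blank mean of 111. The 3M calibration probes averaged 100.3 on ABR17_control, also below its blanks, and 90.4 on ABR17_salt, above its blank mean of 86.5. Heights above the blanks and above the 3M probes therefore differ between the arrays. Over the 29, the normalised level was higher with salt for 17 and lower for 11. The spots were apart in 6 of the 29 with the higher level with salt and in 2 with the lower one. Of the 30 miRNAs detected on both arrays, spots were apart for 3 higher (10.0%) and 5 lower (16.7%). Because the 29 were picked by detection on ABR17_salt only, that choice itself favours higher levels there, and these counts are a description only. The blank spots without salt included values up to 377, and 9 of 1120 lay over the threshold they define, against 3 with salt. When both arrays were held to the same height above their blanks, 5 miRNAs were detected with salt only. With a threshold from the 3M calibration probes the number was 7, beside 3 detected without salt only.

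**Figure D4:**
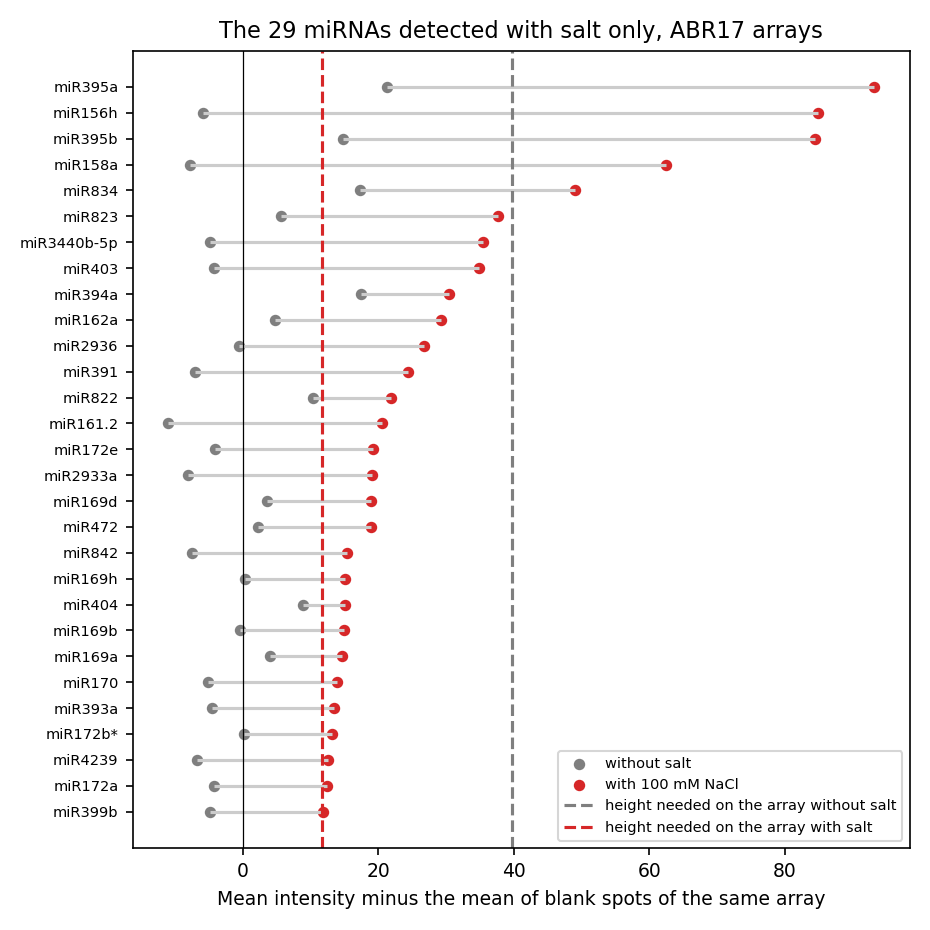
Mean intensity minus the blank mean of the same array for the 29 miRNAs detected with salt only, without salt (grey) and with salt (red), with the height needed for detection on each array dashed. The red points of miR395a, miR156h, miR395b, miR158a and miR834 pass the height of 39.7 needed without salt, and those of the other 24 lie between the heights of 11.8 and 39.7.

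miR156h and miR158a showed the widest steps among them on the normalised log2 scale. For miR156h, an SPL-targeting miRNA, spots read 97.9, 106 and 116 without salt and 138, 175 and 196 with salt. Every spot with salt was brighter than every spot without, and the normalised level went from 6.29 to 7.37. Set against the lowest level that counted as detected without salt, 7.29, the miRNA was at least 1.06-fold higher with salt (0.08 on the log2 scale). That lowest level belongs to another miRNA, so the repeat spots of miR156h give no SE for this bound. Where the alternatives gave a value, 15 of 19, it ranged from 0.01 with the ABR17 arrays normalised alone to 0.77 with a threshold from the calibration probes of the 3M kind. There was no bound with calibration or 5S rRNA scaling, on the lower rows of the array or at 6 blank SD. The authors' processed intensities were 19.1 and 98.6. miR156g and miR156a, with the same seed, were among the bright miRNAs with little difference, and miR157d, a single U11A change away, stood at -0.40. That value of miR157d ranged from -0.57 to -0.06 over the alternatives, and its intensity above the blanks with salt was 0.95 of that without.

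miR158a (AT3G10745), of a family found in Arabidopsis and its relatives, read 94.0, 103 and 115 without salt and 132, 148 and 168.6 with salt. The spots did not overlap. Its normalised level with salt, 7.08, lay below the lowest detected level without salt, so no fold is given. The authors' processed intensities were 12.8 and 77.9. On wild type arrays miR156h and miR158a were detected with and without salt and differed by -2.60 ± 0.09 and -1.38 ± 0.09, opposite in sign to their levels here, which was not tested. The unlike blank spots of the wild type arrays, given with miR5021, apply to these values too.

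The miR395 family acts on ATP sulfurylases and a sulfate transporter and is known to respond to sulfate supply. miR395a read 123, 133 and 141 without salt and 155, 179 and 211 with salt. It was at least 1.20-fold higher with salt (0.26 on the log2 scale), a bound given without an SE, as for miR156h. For miR395a the value ranged from 0.09 to 0.81 over the 16 of 19 alternatives that gave one. There was none with calibration or 5S rRNA scaling or at 6 blank SD. Under the robust and 3M thresholds miR395a counted as detected on both arrays, with a difference of 0.46. miR395b read 106, 121 and 179 without salt and 142, 171.8 and 208 with salt, with overlap and no bound. The phosphate miRNA miR399b, which acts on the ubiquitin conjugase PHO2, read 97.4, 107 and 112 without salt and 89.9, 98.7 and 105 with salt. Above the blanks its mean was -4.80 units without salt and 11.9 with salt, and above the 3M calibration probes 6.08 and 8.04. Of the 11 probes for phosphate and sulfate families these 3 were detected with salt only and 8 on neither array.

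The remaining miRNAs detected with salt only were dim on both arrays. miR834 read 110.3, 130.2 and 144 without salt and 121.6, 136 and 154 with salt, with overlap. miR823, which acts on the chromomethylase CMT3, read 107, 117 and 123 without salt and 104, 124 and 137 with salt. miR403, which acts on AGO2, read 102, 106 and 119.5 without salt and 109, 121 and 136 with salt. In each of these 3 the brightest spots with salt passed those without by a small margin only. miR162a, which acts on DCL1, read 110.3, 114 and 127 without salt and 105, 115 and 130.3 with salt, nearly the same raw intensities. Above the blanks its mean was 4.72 units without salt and 29.3 with salt, and above the 3M calibration probes 15.6 and 25.4. Raw spots of miR394a, which acts on the F-box transcript LCR, were brighter without salt, at 119, 131 and 135 against 106, 119 and 123 with salt. Above the blanks, however, miR394a was higher with salt, at 30.4 units against 17.5. Above the mean of the 3M calibration probes it was not, at 26.5 units with salt against 28.4 without. For miR394a the 12 normalised values did not overlap and were lower with salt, so detection and normalised level run in opposite directions. The 4 NF-YA-targeting members detected with salt only, miR169a, miR169b, miR169d and miR169h, stood 14.6 to 19.0 units above the blanks with salt and -0.40 to 4.04 without. Above the mean of the 3M calibration probes they stood 10.7 to 15.1 units with salt and 10.5 to 14.9 without, nearly the same. Of the other miRNAs in the 12 brightest of the set, miR3440b-5p read 100.1, 106 and 111 without salt and 112, 122.0 and 133 with salt, without overlap. For miR2936 the spots read 103, 112 and 117 without salt and 99.7, 114 and 125 with salt, and for miR391 98.5, 104 and 112 against 98.9, 111 and 120.1. Both overlapped.

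The miRNAs with larger differences had lower levels on median, 8.28 and 7.63 for those higher and lower with salt against 9.51 for the rest. The 4 with a difference of at least 0.5 had mean levels over both arrays of 7.89 to 9.10, and the 6 with a difference of at most -0.5 had levels of 7.01 to 8.73, while the 20 between them reached 11.87. Median GC content was 44.2% in the 4, 54.8% in the 6 and 53.5% in the 20, and median purine content 60.6%, 50% and 55.8%. Across the 30 miRNAs, which share both arrays, the difference correlated with GC content at r = -0.31, with purine content at 0.25 and with mean level at 0.20, given as a description only. The part of base composition and level in the differences was not tested.

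Set beside the wild type arrays, which share no array with this pair, the miRNAs detected on both ABR17 arrays had salt responses that correlated at r = -0.08 over the 30, as a description across miRNAs normalised together. miR398b at -0.90 in ABR17 and -0.98 in wild type, miR398a at -0.68 and -0.78, and miR173 at 0.83 and 0.69 had like values in both. Of the others with non-overlapping spots in ABR17, miR824 stood at -0.24 in wild type, miR319c at -0.61, miR5021 at -1.24, miR164a at 0.38 and miR171b at 0.35, each of the sign opposite to that in ABR17, and miR167a, at -0.76 in ABR17, stood at 0.00. With 1 array in each group no difference between the genotypes could be tested. The wild type arrays also differed in background, with blank spots at 231 ± 22.2 (SD) without salt and 84.8 ± 5.52 with salt. Their 3M calibration probes averaged 265 ± 90.4 and 96.3 ± 6.53. The part of this in the wild type differences was not tested.

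**Figure D5:**
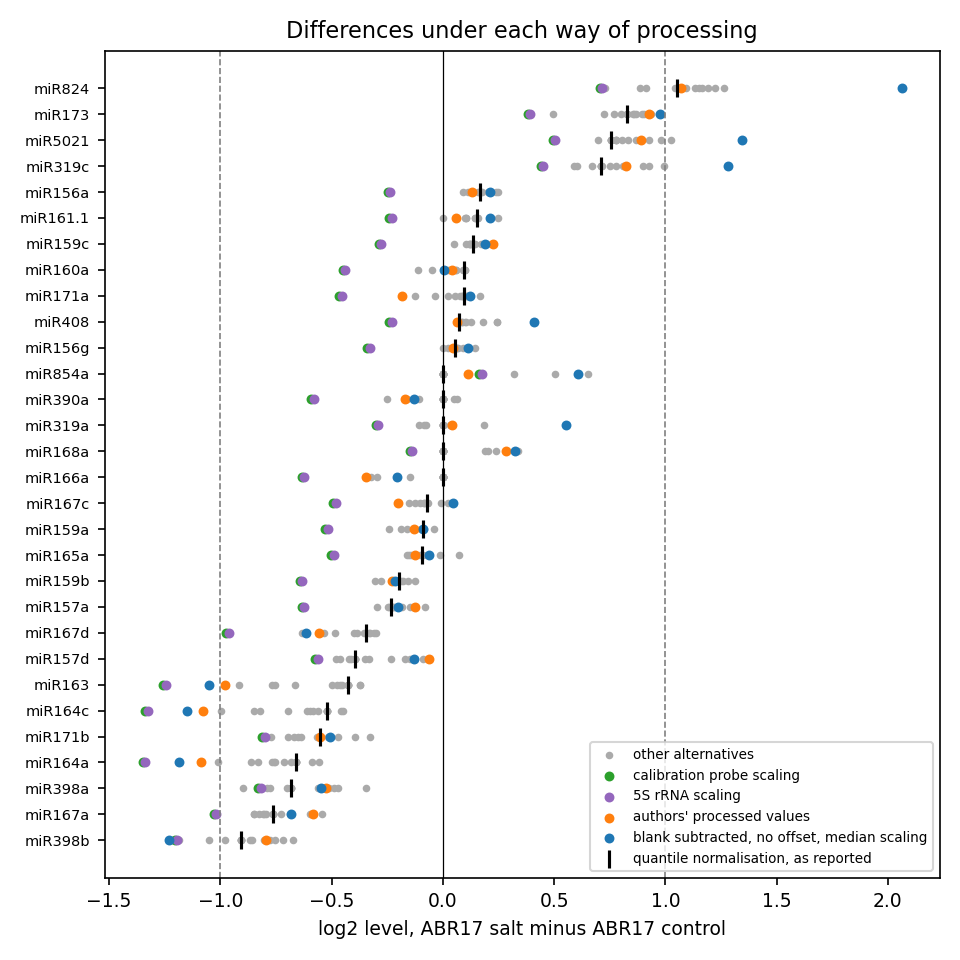
Difference between ABR17_salt and ABR17_control in log2 level for the 30 miRNAs detected on both arrays under each way of processing, with the reported value as a black bar and dashed lines at the 2-fold size. Scaling to calibration or 5S rRNA probes puts the median at -0.50 and -0.49. Each shifts all miRNAs of an array by the same constant, so the moves are uneven only against the quantile normalised values reported. Under calibration scaling miR824 stands at 0.70, miR163 at -1.26 and miR854a at 0.16, and 5 miRNAs are called lower under each of these scalings. The setting with blanks subtracted, no offset and median scaling puts miR824 at 2.06.

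The size of a difference moved with the scale chosen. Over the alternatives miR824 stayed between 0.70 and 2.06, miR5021 between 0.49 and 1.34, miR319c between 0.44 and 1.28 and miR173 between 0.38 and 0.98. On the other side, miR398b stayed between -1.23 and -0.67, miR164a between -1.35 and -0.56, miR167a between -1.03 and -0.54 and miR398a between -0.90 and -0.34. None of these 8 changed sign, but miR824 was no longer called under 5 of the alternatives, while miR398b and miR164a were each called lower under 5, and under the 1.5-fold size rule as well.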

How the data were processed

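Total RNA, enriched for small RNA, was labelled with Cy3 by a service provider, per the labels' protocols. The deposited mean density of each spot is a linear intensity with no background subtracted, per the file headers, and 3968 spots were read per array. No scanner or image software is named in the labels or headers. The authors also deposited 1 processed intensity per miRNA and array, by a background correction and scaling that no label or header describes. Its direction and linear scale were checked against the spots. Its column medians were 11.2 for ABR17_control and 9.38 for ABR17_salt.

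Intensities were corrected with normexp (limma 3.58.1, R 4.3.3, offset 50) over all spots, put on log2, averaged over 12 spots and quantile normalised over the miRNAs of 4 arrays. An miRNA detected on 1 array only was set against the lowest detected level of the other and given a bound where the detecting array was brighter. Text names every miRNA detected on both arrays, the 12 brightest of those detected with salt only, every called miRNA and its neighbours at the size rule. Members and lists were chosen with earlier results of these data known. The steps were also run on simulated arrays with known changes. A required outcome was set only for the run without normalisation, and all simulated arrays shared 1 blank level. That run therefore cannot show how quantile normalisation or the unequal blanks of the real arrays act. With 1 array a group, the number of arrays limits the precision. RefSeq (TAIR10.1) held 1 locus of the same name for 202 of the miRNA probes, and no coordinates are given since the files name no genome build.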

Additional observations from a re-analysis of the deposited data

Results flagged for a closer look

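miR5021 was higher with salt in ABR17 plants, by 0.75 on the log2 scale, and lower with salt in wild type plants, at -1.24. With 1 array in each of the 4 groups the difference between these responses was not tested. Blank spots of the wild type arrays read 231 without salt and 84.8 with salt.

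Outside the miRNA measurements, 3 calibration probes were above the detection threshold on ABR17_salt and below it on ABR17_control. Ctr03-3M05 read 113 with salt and 103 without, Ctr04-3P 252 and 150.4, and PUC2PM-20B 484 and 115. The labels do not say what was spiked in for them.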

How the results depend on the processing

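With 1 array a group, 21 alternatives were tried, 18 planned and 3 added after seeing the data (a robust blank threshold, a threshold from the 3M calibration probes, and blank subtraction with no offset and median scaling). The count of 1 miRNA higher with salt became 0 without background correction, 0 with calibration probe or 5S rRNA scaling, 0 on the lower rows of the array, 0 with detection at 6 blank SD, 2 with quantile normalisation of the ABR17 arrays alone, 3 with no offset and 3 at 1.5-fold. The count of 0 lower became 1 with blank subtraction plus 50 or with an offset of 16 (miR398b), 1 with scaling to the 75th percentile (miR164a), 5 with calibration probe or 5S rRNA scaling (miR163, miR164a, miR164c, miR167a and miR398b), 3 with no offset (miR163, miR164a and miR398b), 4 at 1.5-fold and 2 with the authors' processed intensities plus an offset of 50 (miR164a and miR164c). The scalings moved the median of all miRNAs, by -0.50 for calibration probes, -0.49 for 5S rRNA, -0.16 for the 75th percentile and -0.12 for the authors' values. The 29 miRNAs detected with salt only became 17 at 6 blank SD, 5 at a matched height above the blanks and 7 with the 3M threshold, where 3 were detected without salt only. The cause of these changes was not tested. Without an offset the authors' log2 ratio of miR398b was -1.31. Of 27 nonzero differences 18 kept their sign wherever a value could be had, which for miR395a and miR156h was under 16 and 15 of 19 alternatives. No paired analysis was possible because each group has 1 array.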

Other observations

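Several of the largest ratios in the authors' processed intensities concern probes detected on neither array. Among the 15 largest by size, 9 were detected on neither array, 5 with salt only and 1 on both, and 8 of the 15 had a single spot at least 1.5 times as bright as the next one. miR414 had 1 spot of 1099 without salt where the next read 113, and a mean of 187 that becomes 104 without that spot, beside processed intensities of 123 and 11.2. miR860 had 1 spot of 495 where the next read 108, beside 48.9 and 4.71. miR396b had 1 spot of 405 with salt where the next read 100.0, beside 9.07 and 49.7. Over all probes 12 had such a spot, 11 of them detected on neither array, with 10 cases on ABR17_control and 3 on ABR17_salt.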
